A study of Rattus norvegicus with 6 samples.

Results

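The mRNA of Ldha and that of Pdk3, a pair of genes that direct the fate of pyruvate, were measured in SHR thoracic aorta, where SHR is the spontaneously hypertensive rat, inbred for high blood pressure. Each gene was found on the arrays through its rat RefSeq mRNA accession, Ldha as NM_017025 (gene ID 24533, probe A_44_P210461) and Pdk3 as NM_001106581 (gene ID 296849, probe A_44_P443343). They are 2 of 30 catalogue probes with a gene name here, among 38804 different non-control probes. Per the labels, 3 rats were injected intravenously for 28 days with a Ganoderma lingzhi oligopeptide (from a mushroom), at a daily dose of 5.0 mg/kg. The other 3, the controls, were given saline. All were SHR, so there is no normotensive group. Treatment began at 12 weeks of age and the aortas were collected at 16 weeks. The labels disagree on sex, with female in the growth protocol and male in the characteristics, and which is right is not known here. Each aorta had its own one-colour array, and 3 arrays a group limit the precision.

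Ldha encodes the A subunit of lactate dehydrogenase, the enzyme that converts pyruvate, the end product of glycolysis, to lactate and regenerates NAD+. Pdk3 encodes a pyruvate dehydrogenase kinase, which phosphorylates and switches off the pyruvate dehydrogenase complex and so limits the entry of pyruvate into the citrate cycle in mitochondria. More of either protein favours lactate over mitochondrial oxidation, vascular smooth muscle is known for making lactate even when oxygen is present, and the hypoxia-inducible factors (HIF) are known to raise transcription of LDHA and of pyruvate dehydrogenase kinases.

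The 250 bases before the annotated start of each gene are shown because these are the regulatory sequences nearest to the start of the transcripts compared. They come from RefSeq on the assembly GRCr8, which may differ from the SHR genome, and capitals mark ACGTG, a core motif bound by HIF, on either strand, and TGACGTCA, the cAMP response element. The Ldha stretch is chr1:106507842-106508091 on the plus strand and the Pdk3 stretch is chrX:62547372-62547621 on the minus strand, both written 5′ to 3′.
Ldha: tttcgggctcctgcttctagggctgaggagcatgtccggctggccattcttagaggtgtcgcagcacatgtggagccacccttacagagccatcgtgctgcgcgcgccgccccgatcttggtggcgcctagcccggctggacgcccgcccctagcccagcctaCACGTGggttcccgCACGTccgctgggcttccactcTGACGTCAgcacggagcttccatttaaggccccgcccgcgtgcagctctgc
Pdk3: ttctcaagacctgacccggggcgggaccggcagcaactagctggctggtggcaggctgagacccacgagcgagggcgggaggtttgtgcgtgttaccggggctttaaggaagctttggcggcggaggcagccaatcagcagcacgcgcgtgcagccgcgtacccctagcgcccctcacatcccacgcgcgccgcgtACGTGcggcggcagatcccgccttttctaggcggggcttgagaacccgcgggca
Both are rich in G and C, at 66.4% for Ldha and 68.0% for Pdk3 against a median of 51.2% over the same stretch of 33469 rat genes. The Ldha stretch held 3 matches to ACGTG counted over both strands. Of these, 2 overlap in the palindrome CACGTG, which covers the bases from 87 to 82 before the start, and the third lies at 73 to 69. Pdk3 held 1 match, at 54 to 50. This motif was found at least 1 time in 16.6% of the 33469 stretches, and 2 or more times in 6.5%. The other common HIF core, GCGTG, was matched 1 time in Ldha and 4 times in Pdk3, and 25.9% of all stretches held it at least 1 time. TGACGTCA was matched 1 time in Ldha, at 51 to 44 before the start, and 0 times in Pdk3, with 1.59% of all stretches holding it. CACGTG itself was found in 5.59% of all stretches. Each of these motifs contains CG, and the shares are over all stretches, most of which hold less G and C. Of all stretches, 86.8% had a lower content than Ldha and 89.1% a lower content than Pdk3. Shares among stretches equally rich in G and C were not computed. A match is a description of the letters and not a measured binding site.

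Ldha was among the brighter probes of the aorta. Its processed signal, the background-subtracted intensity averaged over the spots of an array, was 1155, 1403 and 700.0 on control arrays 1, 2 and 3 and 1684, 1230 and 2791 on peptide arrays 1, 2 and 3. The lowest array was control 3 and the highest was peptide 3, a 3.99-fold range, while peptide 2 lay between control 1 and control 2, so the groups overlapped. Ranked among all non-control probes of its own array, Ldha stood at the percentiles 87.7, 91.7 and 86.9 on control arrays 1 to 3, and at 92.8, 87.3 and 93.2 on peptide arrays 1 to 3. The group means were 88.8 ± 2.56 (SD, n = 3) and 91.1 ± 3.29 (SD, n = 3), and the difference between them was smaller than either SD. Between 2637 probes (peptide 3) and 5072 probes (control 3) were brighter than Ldha. Of the 38804 non-control probes, 50 are catalogue probes and 30 of these have a gene name here. The percentiles are thus ranks among mostly unnamed probes and not among named genes.

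Pdk3 was dim. Its processed signal was 53.9, 28.5 and 38.3 on control arrays 1, 2 and 3 and 43.5, 44.6 and 30.0 on peptide arrays 1, 2 and 3. The highest and the lowest array were both controls, with a 1.89-fold range, and all 3 peptide arrays lay between them. The percentiles were 41.5, 18.1 and 22.5 for the controls, and for the peptide arrays 28.9, 30.7 and 19.7, with means of 27.4 ± 12.4 (SD, n = 3) and 26.4 ± 5.87 (SD, n = 3). Control 1 stood apart from the other controls in this rank. Probes bind their targets with different strength, so a percentile describes the brightness of a probe and does not set the amount of Ldha RNA against that of Pdk3. In a whole aorta, fewer cells of a type and less RNA per cell cannot be told apart.

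**Figure D1:**
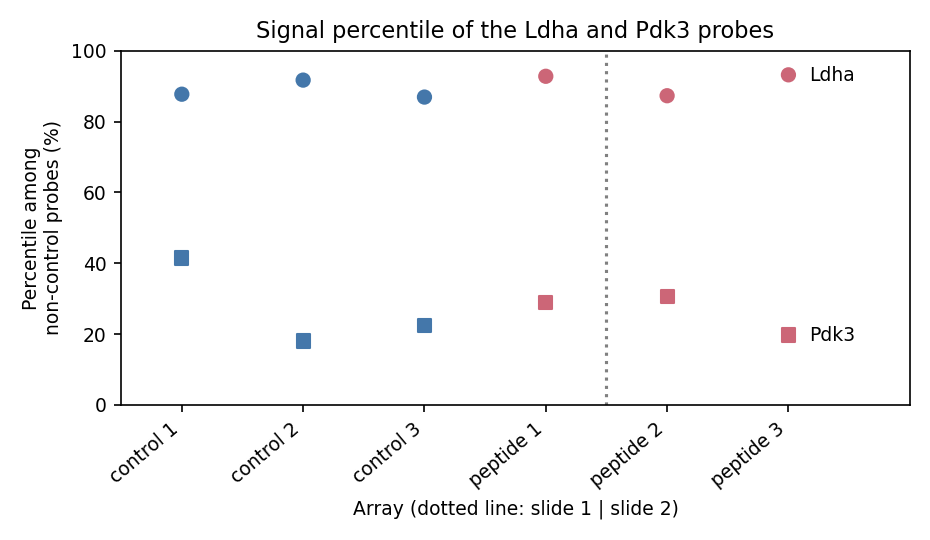
Percentile of the Ldha probe (circles) and the Pdk3 probe (squares) among all non-control probes of each array, for 3 control arrays (blue) and 3 peptide arrays (red), with a dotted line between the arrays of slide 1 and those of slide 2. A slide here is the set of arrays that share a scan date. Ldha stays between 86.9 and 93.2, and Pdk3 between 18.1 and 41.5, with overlapping groups for both genes.

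Dim as it was, Pdk3 was measured above background everywhere. All 10 spots of the probe on each of the 6 arrays were called well above background, as were those of Ldha. This call was common, since 95.4% to 98.0% of all probes had it, depending on the array, so it sets neither gene apart. Before background subtraction the median Pdk3 spot was 3.25 to 5.12 times as bright as its local background, depending on the array, and the median Ldha spot 56.5 to 178 times. The 153 spots of the negative control probe on each array had a median processed signal of 1.35 to 2.31, and the brightest of them on any array reached 10.7. The mean Pdk3 signal was 3.14 to 10.4 times the brightest negative control spot of its own array, and no spot on any array was saturated.

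Spots of a probe repeated closely within an array. After leaving out the 3 outlier-marked spots of each gene, the coefficient of variation over the spots ran from 4.68% to 9.49% for Ldha and from 4.83% to 10.1% for Pdk3. The median over the 50 catalogue probes, each spotted 10 times, ran from 5.08% to 7.82%. Pdk3 was above the median of its array, as on control 3 (10.1% against 6.17%), on every array but peptide 1 (4.83% against 7.06%). The dim Pdk3 probe thus repeated somewhat less closely than the typical catalogue probe on most arrays. Of the variation among all 60 spots of a gene in log2 signal, 97.9% lay between arrays for Ldha and 88.1% for Pdk3. Here outlier-marked spots were kept and arrays were not scaled. The share between arrays thus includes the brightness of whole arrays and the difference between groups. The position of the spot, which is the same on every array, took 1.28% and 6.50%. Some arrays were nonetheless alike, as with Pdk3 on peptide 1 and peptide 2, whose means of 43.5 (spot SD 2.10) and 44.6 (spot SD 2.93) differed by less than the spread of their spots. The spread behind the tests below is that between arrays, and not that between spots. Limma also moves the spread of each probe toward that of all tested probes. Both genes had an SD within groups above the median of the probes (0.59 and 0.44 against 0.40). In the fit over all 6 arrays their SEs are thus smaller than their own arrays alone would give.

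**Figure D2:**
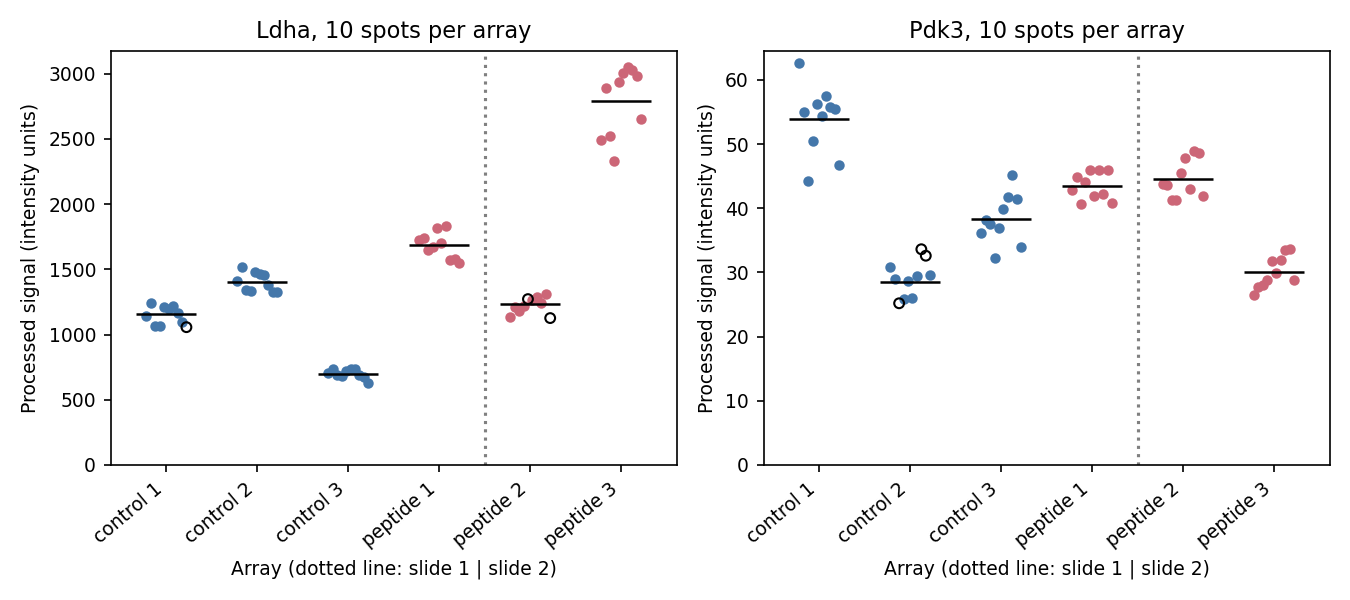
Processed signal of each spot (linear axes from 0) for Ldha (left) and Pdk3 (right) on 3 control arrays (blue) and 3 peptide arrays (red), where black bars are means, open circles are outlier-marked spots left out of the mean, and a dotted line parts slide 1 from slide 2. Array means run from 700.0 to 2791 for Ldha and from 28.5 to 53.9 for Pdk3, and Pdk3 spots overlap between several arrays, such as peptide 1 and 2.

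The design asks which RNAs differ between treated and control aortas. To compare arrays, the log2 signal was lowered by the 75th percentile of all non-control probes of the array. On this normalised log2 scale Ldha was at 2.20, 2.65 and 1.59 in controls 1, 2 and 3 and at 2.81, 1.87 and 3.08 in peptide 1, 2 and 3. Peptide 1 and 3 lay above all controls and peptide 2 lay between control 1 and control 3. Controls averaged 2.14 ± 0.53 (SD, n = 3) and treated aortas 2.59 ± 0.64 (SD, n = 3). The difference was 0.44 (SE 0.39), which is 1.36-fold, with a 95% interval from -0.43 to 1.31, or from 0.745-fold to 2.49-fold. It did not pass the test (limma, Benjamini-Hochberg adjusted p = 0.758 over 37723 probes). The controls alone spanned 1.06 on this scale, more than the difference between the groups.

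Pdk3 was at -2.23, -2.98 and -2.61 in controls 1, 2 and 3 and at -2.46, -2.92 and -3.45 in peptide 1, 2 and 3. Only peptide 3 lay below all controls, and the other two peptide arrays lay within the range of the controls. Controls averaged -2.60 ± 0.37 (SD, n = 3) and treated aortas -2.94 ± 0.49 (SD, n = 3). The difference was -0.34 (SE 0.34), with a 95% interval from -1.09 to 0.41, and did not pass the test (limma adjusted p = 0.768). As fold changes the interval reaches from 0.469-fold to 1.33-fold, so neither a lower nor a higher level in the treated aortas can be told from no change at this number of arrays.

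Neither member was called, and the background share of called probes was 0% as well. Limma found 0 of 37723 probes past an adjusted p of 0.05, and 1068 probes (2.83%) had an unadjusted p under 0.05, neither member among them. Peptide arrays that were all higher than every control were found for 1.28% of probes, and all lower for 4.19%, and neither Ldha nor Pdk3 was among these. In the two-sided exact permutation test over the 20 ways to assign the arrays, p was 0.4 for Ldha and 0.5 for Pdk3, or 0.5 for both after adjustment over the pair. With 3 arrays against 3 this test cannot go below 0.1.

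The median difference of all tested probes was itself -0.21 on this scale. Relative to that median, Ldha was 0.66 higher and Pdk3 was at -0.12. These values also moved with single arrays. That of Ldha was 0.35 without control 3 and 0.36 without peptide 3, but 0.92 without control 2 and 0.96 without peptide 2. That of Pdk3 turned to 0.07 without control 1 and without peptide 3 (0.073 and 0.075), to 0.13 with the slide as a block and to 0.01 after quantile normalization. It was -0.301 without control 2 and -0.245 without peptide 1. Processing moved these values as well. With normexp, another background correction, and the same scaling, the median of all probes was -0.49. Relative to it Ldha was at 1.18 and Pdk3 at -0.18. Of all tested probes, 94.3% had a lower difference than Ldha, and 35.4% a lower difference than Pdk3, which places Ldha toward the upper end of the distribution and Pdk3 inside its broad middle. Ldha also varied more between arrays than most probes did. The SD of Ldha within groups was 0.59, larger than that of 82.4% of the probes, against a median of 0.40. That of Pdk3 was 0.44, larger than that of 57.7% of the probes.

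The size of the Pdk3 difference depended on how arrays were scaled. Without any scaling, the geometric mean of its processed signal was 38.7 for controls and 38.7 for treated aortas, a log2 difference of 0.00 (-0.002, SE 0.302). The difference was -0.02 after quantile normalization, which gives all arrays the same distribution, and -0.14 after scaling to the median. The 75th percentile used as the reference was a signal of 251, 224, 233 and 240 on control 1, 2, 3 and peptide 1, and of 336 and 328 on peptide 2 and 3. The brighter reference of these last 2 arrays lowers every probe on them, Pdk3 included. In the authors' deposited table, which is on a log2 scale, the controls stood at 5.96, 4.84 and 5.07 for Pdk3, and the treated aortas at 5.39, 5.48 and 4.91. All 3 peptide arrays lay within the range of the controls there, and the difference of the means was -0.03.

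Ldha was higher in the peptide group under each of these scalings, although no scaling gave a difference that passed the test. The difference was 0.78 (SE 0.38) without scaling, 0.52 (SE 0.42) after quantile normalization and 0.65 (SE 0.41) after median scaling, with limma adjusted p between 0.785 and 0.820. In the authors' deposited table the controls stood at 9.93, 10.79 and 9.78 for Ldha, and the treated aortas at 11.04, 9.85 and 11.16. Peptide 1 and 3 again lay above all controls, and peptide 2 was close to control 1 and control 3.

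**Figure D3:**
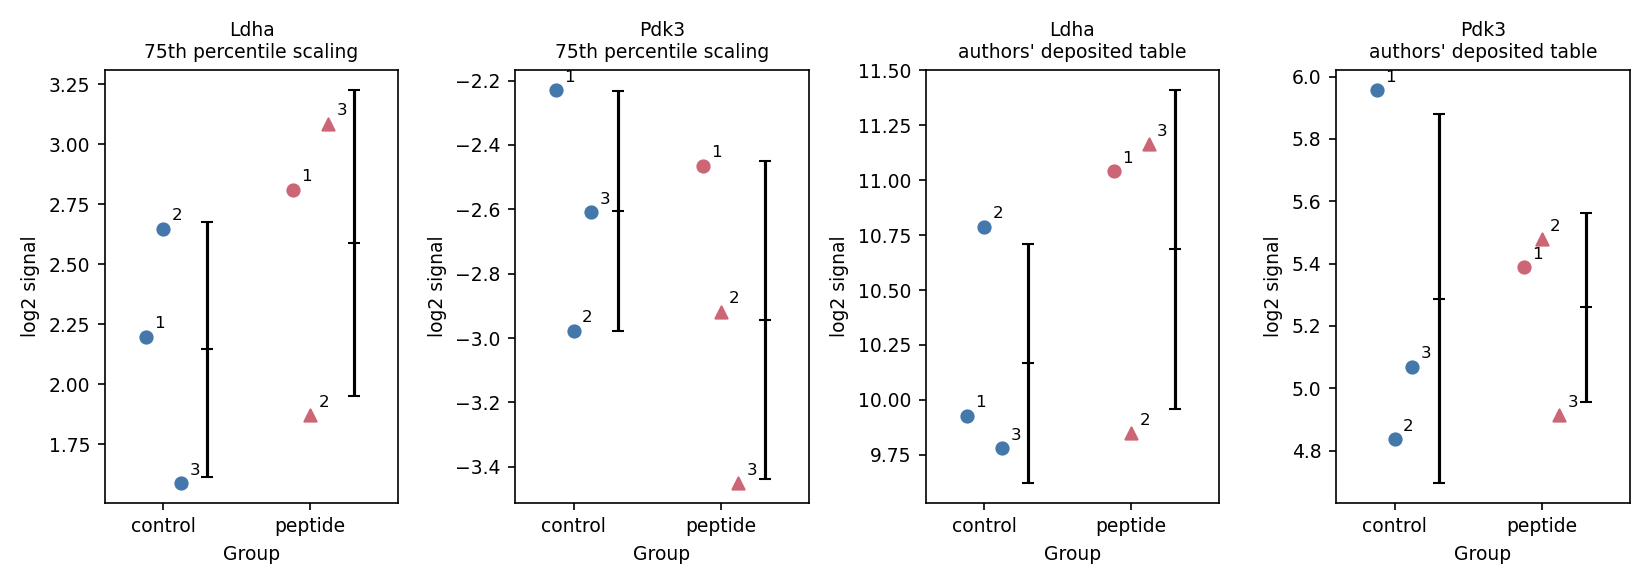
Log2 signal of Ldha and Pdk3 by group, on the scale lowered by each array's 75th percentile (left pair) and in the authors' deposited table (right pair), with each array numbered, circles for slide 1, triangles for slide 2, and bars for mean ± SD (n = 3). For Ldha, peptide 2 lies among the controls on both scales; for Pdk3, the group means are -2.60 and -2.94 on the first scale and 5.29 and 5.26 on the second. The vertical axes differ between panels and do not start at 0.

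The arrays fell into 2 sets by the scan date in the file headers, and each set is called a slide here. Whether each set was a single physical slide was not checked. Slide 1 held the 3 controls with peptide 1, and slide 2 held peptide 2 and 3, so for these latter arrays an effect of the peptide and one of the slide cannot be told apart. For Ldha, peptide 1 was 0.67 above the mean of the controls of its own slide, and peptide 2 and 3 were on average 0.33 above it. With the slide as a block the Ldha difference was 0.67 (SE 0.57, 95% interval -0.68 to 2.01, limma adjusted p = 1). For Pdk3, peptide 1 was at 0.14 from the controls of its slide and peptide 2 and 3 at -0.58. With the slide as a block the Pdk3 difference was 0.14 (SE 0.40, 95% interval -0.80 to 1.08, limma adjusted p = 1), which turns its sign. Both of these values rest on 1 treated rat. With the slide as a random block, which also uses peptide 2 and 3, the differences were 0.54 (SE 0.45) for Ldha and -0.12 (SE 0.37) for Pdk3, and neither passed the test. In the fit with the fixed block 0% of the probes passed the adjusted threshold (0 of 37704, with 632, or 1.68%, at an unadjusted p under 0.05). After quantile normalization the Pdk3 values of peptide 1 and of peptide 2 and 3 were 0.11 and -0.08 from the controls, and those of Ldha 0.88 and 0.34.

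Single arrays carried much of both differences. Leaving out control 3, the lowest for Ldha, took its difference to 0.17, and leaving out peptide 3, the highest, took it to 0.20. Without control 2 it was 0.70 and without peptide 2 it was 0.80 (SE 0.41, limma adjusted p = 1.00). For Pdk3 the difference was -0.15 without control 1 and -0.09 without peptide 3, and -0.53 without control 2 and -0.58 without peptide 1. In none of these did either gene pass the test.

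**Figure D4:**
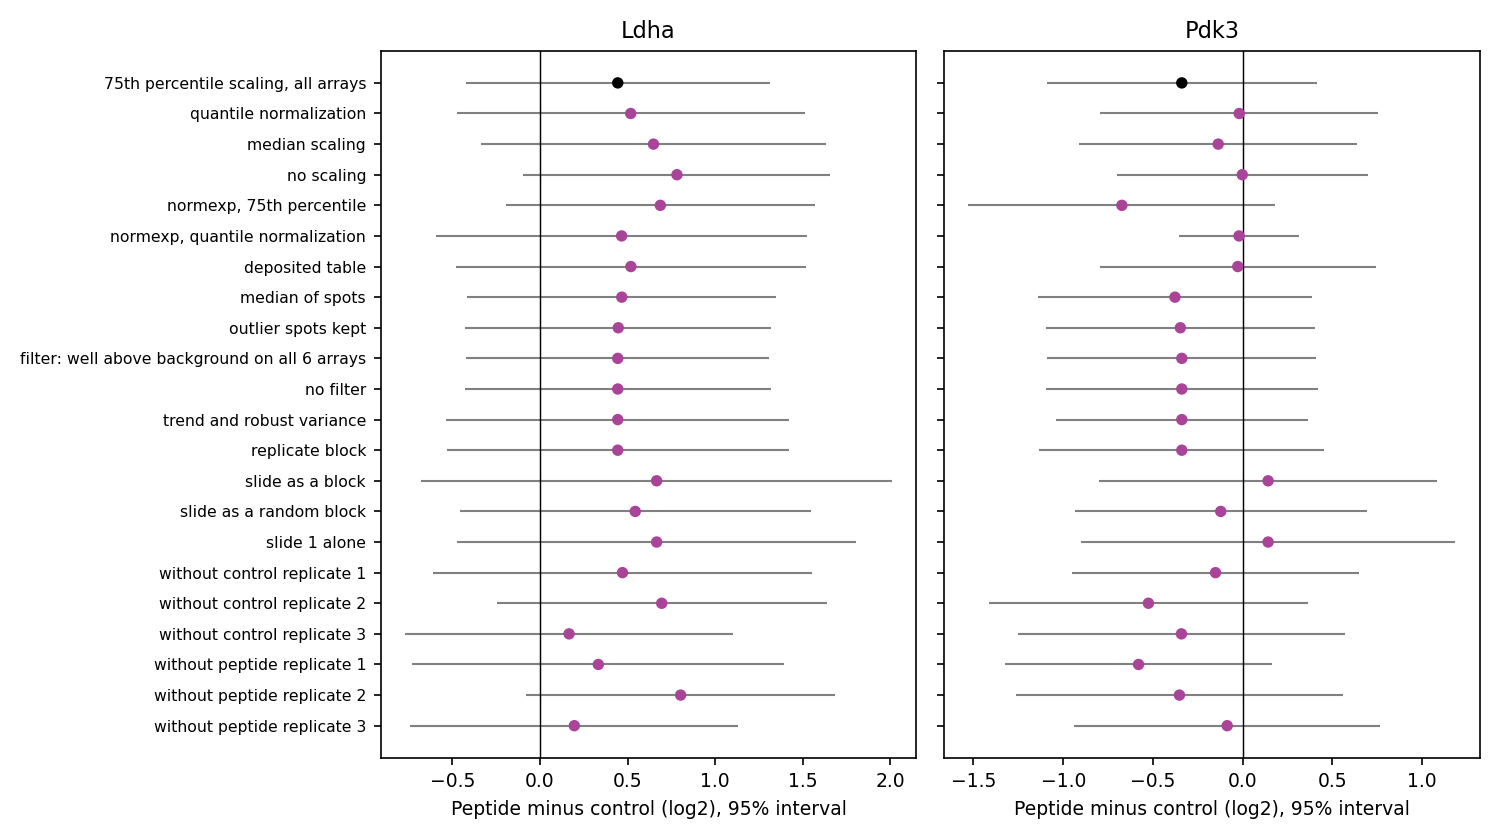
Difference between peptide and control (log2, points) with its 95% interval (lines) for Ldha (left) and Pdk3 (right), in the analysis reported here (black) and under the alternatives named on the vertical axis (purple). All intervals include 0; the Ldha points run from 0.17 to 0.80, and the Pdk3 points from -0.67 to 0.14, with the points above 0 being those of slide 1 alone and of the slide as a block.

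The genes were also set side by side within each array. The log2 ratio of the Ldha signal to the Pdk3 signal does not depend on a scaling factor of the array, and its size has no meaning as an RNA ratio because the probes differ. It was 4.43, 5.62 and 4.20 in controls 1, 2 and 3 and 5.27, 4.79 and 6.54 in peptide 1, 2 and 3. Control 2 exceeded peptide 1 and 2, so the groups overlapped, with means of 4.75 ± 0.77 (SD, n = 3) and 5.53 ± 0.90 (SD, n = 3) and a difference of 0.78. Peptide 3 carried much of it: without that array the difference was 0.28. It was 0.51 without control 3 and 1.22 without control 2, and 0.54 after quantile normalization, which changes the ratio. The smallest values came from control 1 and 3 and the largest from peptide 3, the array with the brightest Ldha and the next to lowest Pdk3 signal.

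Other named genes were ranked by how closely their pattern over the 6 arrays followed each member, as the root mean square difference between profiles centred on their own means. The arrays share their scaling and slides, and the measure is a description over 6 samples. It depends on the size of the changes as well as on their shape. A flat profile would score slightly less than the member's own SD over the 6 arrays, which was 0.58 for Ldha and 0.43 for Pdk3. A value near that SD thus need not mean a shared pattern, and a gene that varies much, as Ldha does, ranks far from one that varies less. The 3 genes closest to Ldha were Nat1, an N-acetyltransferase (0.35), Trim2, a ubiquitin ligase (0.45), and Eif4b, a translation initiation factor (0.50), against a median of 0.73 over the 29 other named genes. Like Ldha they were high in peptide 1 and low in peptide 2, but all 3 were higher in control 1 than in control 2, where Ldha was lower. They also differed from Ldha in peptide 3, the array with its highest value: all 3 had their highest value in peptide 1 instead. The 3 closest to Pdk3 were the tyrosine kinase Ptk2b (0.19), the phosphatase subunit Ppp2r2b (0.24) and the lncRNA gene LOC108352165 (0.26), against a median of 0.40. Ptk2b shared the low value in peptide 3, at -2.11 against -1.51 to -1.09 on the other arrays. The same genes came first in the same order after quantile normalization. The root mean square difference between Ldha and Pdk3 was 0.79, near the median of 0.73 for Ldha but well above that of 0.40 for Pdk3. Pdk3 took place 18 of 29 among the genes closest to Ldha, while Ldha took place 28 of 29 for Pdk3.

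**Figure D5:**
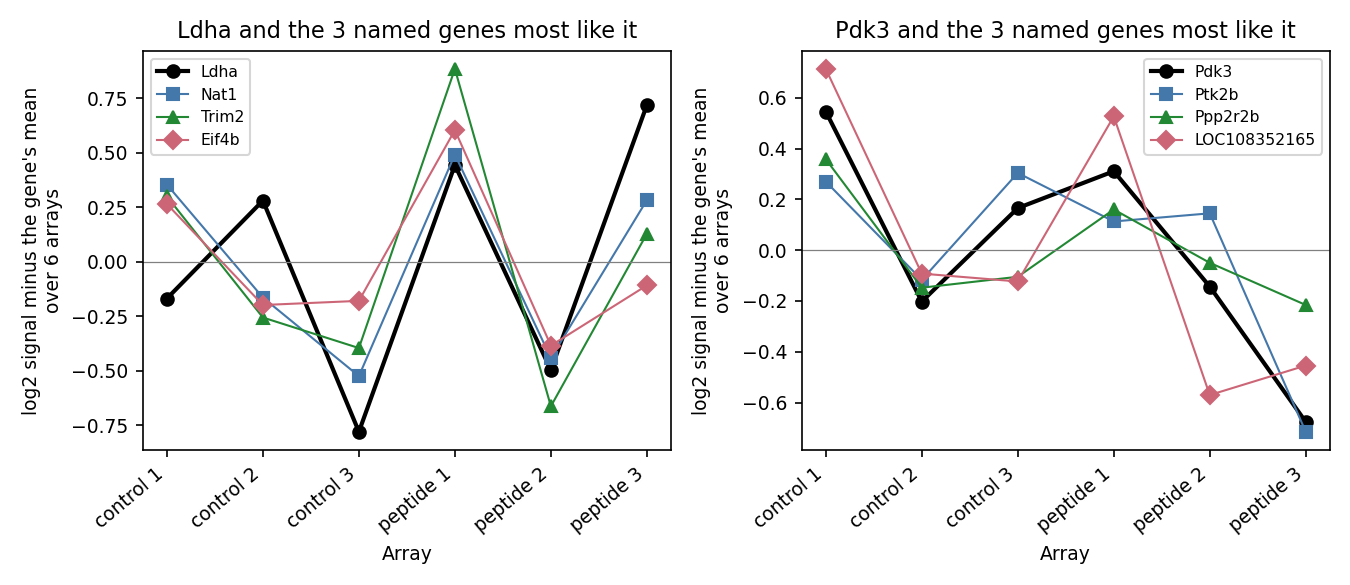
Normalised log2 signal of Ldha (left) and Pdk3 (right) in black with the 3 named genes most like each, every gene centred on its mean over 6 arrays; the lines join the arrays only to guide the eye. Ldha and its neighbours are high in peptide 1 and low in peptide 2, Ldha alone of them is highest in peptide 3, and Pdk3 is lowest in peptide 3, at -3.45 before centring.

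Of the 64 genes of glycolysis, lactate handling, pyruvate entry, the hypoxia response and citrate cycle entry that were listed as the surrounding pathway, Ldha and Pdk3 were the 2 with a named probe. No other lactate dehydrogenase subunit, pyruvate dehydrogenase kinase, lactate transporter or HIF gene could be described here. Of 40 markers of vessel wall and other cell types, Map2, a neuronal marker, was the 1 with a named probe, so the tissue label was not checked against smooth muscle or endothelial markers. Between 95.4% and 98.0% of all probes lay well above background on an array.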

How the data were processed

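Per the labels' protocols, ribosomal RNA was removed from each aorta's total RNA, and the rest was randomly primed and labelled with Cy3. The 6 arrays are taken as 6 separate rats, since that protocol speaks of 6 animals. The deposited scanner files hold spot intensity from Agilent Feature Extraction 11.0.1.1, per the file headers, background-subtracted and not normalised between arrays. The authors' deposited value table is on a log2 scale; its column medians are about equal in all arrays and every column matched its own array's scanner values most closely (r across probes at least 0.9974). The steps that made it are not given in the sources used here.

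After removal of control and outlier-marked spots, log2 processed signals were averaged per probe, and each array was lowered by its 75th percentile. Probes called well above background by 3 or more of the 6 arrays (37723) were fitted with limma 3.58.1 in R 4.3.3 (two-sided, Benjamini-Hochberg, threshold 0.05). Of 50 catalogue probes, 30 matched a RefSeq gene of GRCr8, used for names and promoter sequences. Named genes are the members and, for each, the 3 named genes with the most similar profile. The members and lists were chosen with earlier results of these data known. Alternatives were other scalings, normexp background correction (offset 50, on median spot signals), the deposited table, spot averaging, filters, variance model, blocks by slide or replicate number, and leaving out each array. The fit was tested on simulated data. No pair of arrays held identical values. Plots used Python 3.11.15 and matplotlib 3.10.9.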

Additional observations from a re-analysis of the deposited data

How the results depend on the processing

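Under 21 alternatives the Ldha difference kept its sign in 21 (0.17 to 0.80) and the Pdk3 difference in 19 (lowest -0.67, with normexp and the 75th percentile), and no alternative took either past the threshold (adjusted p of 0.267 or more). The Pdk3 difference turned to 0.14 with the slide as a block and to 0.14 in slide 1 alone, fits that rest on peptide 1; the cause was not tested. Pdk3 values of -0.02, -0.02, -0.03 and 0.00 (-0.002) after quantile normalization, normexp with quantile normalization, in the deposited table and without scaling are so close to 0 that a kept sign says little. Over all probes, 0 passed the adjusted threshold in 20 of 21 alternatives; omitting single arrays gave between 0 and 4, the latter when control 2 was omitted. Mean percentiles moved by less than 1 SD under all alternatives tried, between 87.3 and 89.7 for Ldha in controls and 90.0 and 93.0 in the peptide group, and between 20.3 and 32.0 and between 21.7 and 29.8 for Pdk3. Signal over local background was lower for Pdk3 (3.25 to 5.12 times) than for Ldha (56.5 to 178 times). The ratio of the 2 genes stayed higher in the peptide group (0.28 to 1.22) when single arrays were left out and after quantile normalization, alternatives that were chosen after seeing the data.

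Deviations from the group mean correlated at -0.013, -0.19 and -0.236 between arrays of the same number, and 0 of 3 controls correlated best with its own number. With 3 arrays a group these values cannot decide whether arrays of the same number were paired. With the replicate block the differences stayed at 0.44 (SE 0.44, limma adjusted p = 0.888) for Ldha and -0.34 (SE 0.36, limma adjusted p = 0.888) for Pdk3, with 0 probes past the threshold.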
